A study of Mus musculus with 12 samples.

Results

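The genes described here are the glutathione transferases and the antioxidant genes controlled by the transcription factor NRF2, followed in spontaneous liver tumours of old mice. The list held 43 genes, taken by name, and 40 of them were measured by an array probe set that named that gene alone, out of 18193 genes measured in all. Gsta1, Gstp2 and G6pdx had no such probe set and are not analysed here. The 6 hepatocellular carcinomas (HCC) were spontaneous tumours of untreated 2-year-old B6C3F1 mice, a hybrid between the strains C57BL/6 and C3H, and the 6 normal livers came from untreated mice of the same hybrid and age. The tissue was collected in a bioassay of the National Toxicology Program. Each sample was whole tissue on 1 single-colour Affymetrix array. The labels give no sex, and they do not say whether each tumour came from a different mouse. The p-values set the difference between groups against the spread between these samples, taken as independent. Tumours that shared a mouse could make them too small. In whole tissue, fewer cells of a type and less RNA per cell cannot be told apart. All levels below are log2 values of the array intensity after a constant of 16 was added and the arrays were brought to one distribution, so a level of 4 is the floor. Precision is limited by how few arrays there are.

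Glutathione is a small peptide that donates its thiol group to reactive compounds and peroxides. The glutathione transferases catalyse that transfer and fall into classes named alpha, mu, pi, theta, kappa, omega and zeta, with a separate membrane-bound microsomal family. NRF2, encoded by Nfe2l2, is held in the cytoplasm and marked for degradation by Keap1, and when Keap1 is modified by electrophiles NRF2 enters the nucleus, pairs with small Maf proteins and binds antioxidant response elements. Its targets make glutathione, supply NADPH and repair oxidised thiols. In liver several transferases are also enriched around the central vein, where Wnt and beta-catenin signalling is active, and some differ between the sexes.

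Of the 40 measured genes, 5 rose in HCC against normal liver (Cbr3, Osgin1, Srxn1, Nfe2l2 and Gss), 1 fell (Gstk1) and 34 did not pass the test, which was limma with Benjamini-Hochberg adjustment over all 18193 genes at a threshold of 0.05. Across all genes 6.48% were called higher and 7.25% lower, so the 12.5% and 2.5% of these genes add up to 15%, close to the 13.7% called in either direction on the whole array. The median log2 difference, HCC minus normal, was 0.19 over the 40 genes and -0.04 over all genes. The 2 groups did not overlap in 7 of the 40 genes, or 17.5%, against 8.75% of all genes. Every tumour was above every normal liver for Cbr3, Srxn1, Osgin1 and Nfe2l2 (4.25% of all genes) and below for Gstk1, Gstz1 and Mgst1 (4.5% of all genes). The spread between samples was larger among HCC than among normal livers for 34 of the 40 genes, or 85%, against 64.7% of all genes.

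**Figure D1:**
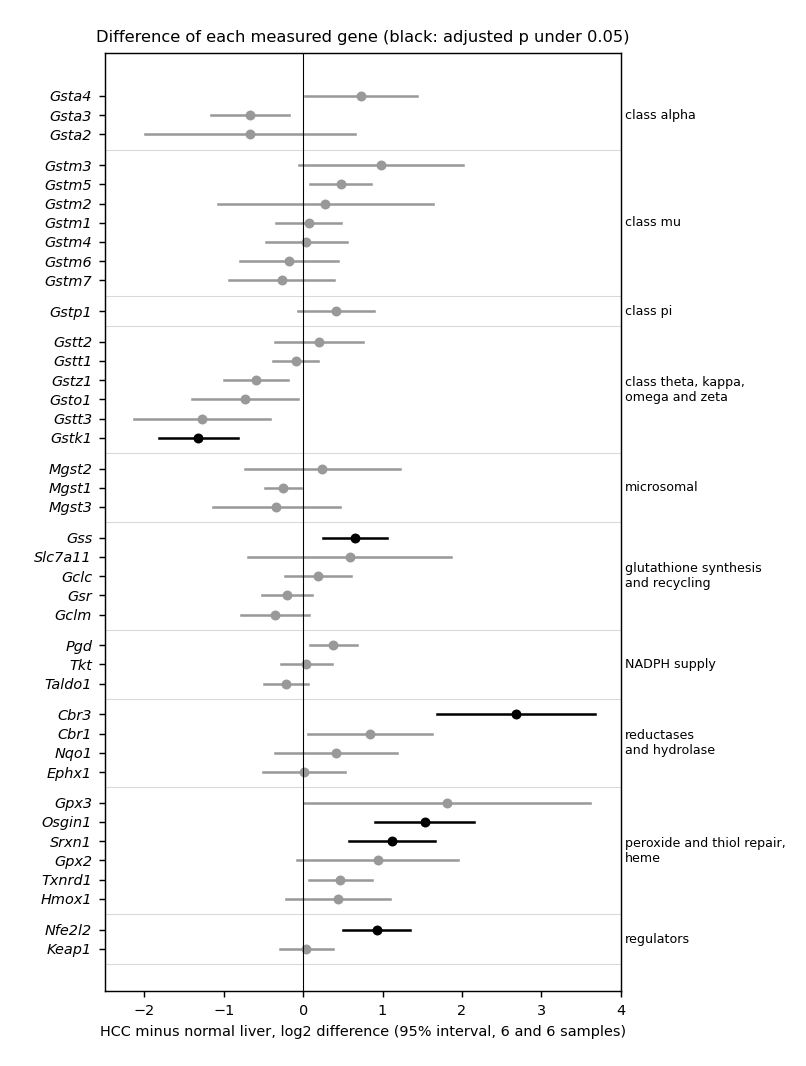
Log2 difference, HCC minus normal liver (x axis), of each of the 40 measured genes (y axis, grouped by role), with points for the limma estimate and lines for its 95% interval over 6 HCC and 6 normal livers. Black marks the 6 genes with an adjusted p under 0.05, led by Cbr3 at 2.68 and, on the other side, Gstk1 at -1.32.

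The regulators were NRF2 itself and its inhibitor. Nfe2l2 was at 12.96, 12.72, 12.08, 12.72, 12.01 and 13.12 in HCC 1 to 6, against 11.49, 11.64, 11.67, 11.65, 11.79 and 11.82 in normal livers 1 to 6. Every tumour was above every normal liver, and the log2 difference was 0.93 ± 0.20 (SE, limma adjusted p = 0.00861). A second, dimmer probe set of Nfe2l2 was at -0.74 ± 0.29 without passing the test, and the mean of both gave 0.09 (limma adjusted p = 0.803). Keap1 ranged between 9.93 and 10.38 in HCC and between 9.56 and 10.41 in normal liver. The groups overlapped fully, with a difference of 0.04 whose 95% interval ran from -0.29 to 0.38.

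The 4 genes of the list with complete separation upwards are shown here with the 250 bases before a transcript start (RefSeq, GRCm38.p6), since all 4 were higher in every tumour. For Osgin1 the start used lies inside the annotated gene, which begins further upstream. Capitals mark 2 motifs searched on both strands, the core of the antioxidant response element, TGACNNNGC, and the AP-1 site, TGANTCA, which overlap where TGACTCA is followed by GC.
Nfe2l2, chr2:75704664-75704913, minus strand: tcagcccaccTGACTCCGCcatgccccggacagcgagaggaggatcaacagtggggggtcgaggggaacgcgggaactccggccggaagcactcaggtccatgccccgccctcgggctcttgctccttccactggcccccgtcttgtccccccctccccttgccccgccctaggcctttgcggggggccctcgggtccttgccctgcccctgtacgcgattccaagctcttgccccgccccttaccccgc
Srxn1, chr2:152105274-152105523, plus strand: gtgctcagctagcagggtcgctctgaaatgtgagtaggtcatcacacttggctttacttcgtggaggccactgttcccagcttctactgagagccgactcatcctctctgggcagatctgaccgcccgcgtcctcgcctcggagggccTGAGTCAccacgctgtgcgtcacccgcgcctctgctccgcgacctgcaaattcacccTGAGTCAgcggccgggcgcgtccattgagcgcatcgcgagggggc
Osgin1, chr8:119436897-119437146, plus strand: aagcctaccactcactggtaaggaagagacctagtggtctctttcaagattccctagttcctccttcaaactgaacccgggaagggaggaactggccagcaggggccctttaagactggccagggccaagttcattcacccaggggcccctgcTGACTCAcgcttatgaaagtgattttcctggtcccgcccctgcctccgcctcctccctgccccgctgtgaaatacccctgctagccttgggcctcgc
Cbr3, chr16:93682969-93683218, plus strand: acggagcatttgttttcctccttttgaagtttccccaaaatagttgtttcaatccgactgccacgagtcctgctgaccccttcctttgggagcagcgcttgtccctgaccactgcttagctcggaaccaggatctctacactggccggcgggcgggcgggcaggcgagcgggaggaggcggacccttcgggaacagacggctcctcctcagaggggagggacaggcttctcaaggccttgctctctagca
The Nfe2l2 window holds TGACTCCGC, which begins 240 bases before the start. The Srxn1 window holds TGAGTCA at 102 and again at 45 bases before the start, and the Osgin1 window holds TGACTCA at 97 bases. Neither motif is in the Cbr3 window. Beyond the bases shown, Srxn1 has TGACNNNGC on the reverse strand, as GCTAGGTCA, beginning 28 bases after the start. Windows from 250 bases before to 50 after the start were at hand for 38 of the 43 genes, and TGACNNNGC was found in 10 of them (26.3%), against 14.0% of 27025 genes. TGANTCA was found in 6 of the 38 (15.8%), against 8.97% of all genes. A match of letters is a description and does not show that a factor binds there.

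Among reductases and hydrolases, carbonyl reductase 3 (Cbr3), an NADPH-dependent enzyme that reduces carbonyls and a known NRF2 target, had the largest difference of the list. It was at 9.10, 8.72, 11.03, 7.97, 8.21 and 9.14 in HCC 1 to 6, against 6.62, 5.90, 6.78, 5.33, 6.64 and 6.82 in normal livers 1 to 6. The tumours did not overlap the normal livers, and the rise was 2.68 ± 0.46, a 6.40-fold higher level (SE, limma adjusted p = 0.00283). That fold is of intensities with 16 added. Its size depends on that constant, since all normal livers were dim, below the array's median gene at 7.71. Carbonyl reductase 1 (Cbr1), encoded close to it on chromosome 16, was above all normal livers in 4 tumours and at 0.84 ± 0.36 overall (limma adjusted p = 0.144). NAD(P)H quinone dehydrogenase 1 (Nqo1), the classical NRF2 target, was at 7.55, 9.32, 10.32, 9.67, 9.15 and 9.19 in HCC 1 to 6 and between 8.56 and 8.97 in normal liver. Thus 5 tumours lay above and HCC 1 lay below all normal livers. The difference was 0.41 ± 0.35 (limma adjusted p = 0.490). Without HCC 1, the tumour opposite to the others, it was 0.74 and passed (limma adjusted p = 0.0404). Of 12 such fits with 1 array left out, only this 1 passed for Nqo1. Leaving out the tumour that lies against a difference enlarges it by design. Each uncalled gene below that passed without a tumour did so in 1 or 2 of 12 such fits, so none counts as a call. The microsomal epoxide hydrolase Ephx1 ranged between 13.07 and 14.05 in HCC and between 12.91 and 14.18 in normal liver, a difference of 0.01 (95% interval -0.51 to 0.52).

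Sulfiredoxin 1 (Srxn1), which restores over-oxidised peroxiredoxins, was at 10.75, 10.48, 11.84, 10.66, 9.96 and 10.94 in HCC 1 to 6, against 9.53 to 9.84 in normal liver. It rose by 1.12 ± 0.25 (SE, limma adjusted p = 0.0115), with every tumour above every normal liver. Its other 3 probe sets were at 0.98, 0.93 and 0.11, none past the test over all probe sets, and their mean with the first gave 0.78 (limma adjusted p = 0.107). Osgin1, a growth inhibitor induced by oxidative stress, was at 13.61, 12.94, 12.67, 13.08, 13.07 and 13.01 in HCC 1 to 6, against 11.54, 12.65, 11.68, 10.85, 10.80 and 11.68 in normal livers 1 to 6. The tumours were closely grouped and the normal livers were not, so that HCC 3 lay only just above normal 2. The rise was 1.53 ± 0.29 (SE, limma adjusted p = 0.00457).

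Thioredoxin reductase 1 (Txnrd1), which keeps cytosolic thioredoxin reduced, was at 12.02, 11.06, 12.03, 11.92, 11.18 and 11.60 in HCC 1 to 6, against 11.09 to 11.29 in normal liver. Tumours 1, 3, 4 and 6 lay above that narrow range, HCC 5 within it and HCC 2 just below it. The difference of 0.47 ± 0.18 did not pass (limma adjusted p = 0.111), but without HCC 2 it was 0.58 and passed (limma adjusted p = 0.0358). Further probe sets of Txnrd1 were smaller, at 0.24 and 0.30, and did not pass in the fit over all probe sets (limma adjusted p = 0.610 and 0.533). Glutathione peroxidase 2 (Gpx2), the form of the gut epithelium, was at 7.74, 7.53, 8.78, 7.88, 7.43 and 5.87 in HCC 1 to 6 and between 5.69 and 7.73 in normal liver, with overlapping groups (0.94 ± 0.47, limma adjusted p = 0.213). Glutathione peroxidase 3 (Gpx3), the secreted plasma form, had the widest spread among the tumours, at 7.94, 7.86, 12.14, 9.28, 8.63 and 13.05 in HCC 1 to 6, against 7.49 to 8.71 in normal liver. HCC 3 and HCC 6 were 4.14 and 5.04 above the mean of normal liver, while HCC 1 and HCC 2 were at -0.07 and -0.15, and the groups did not differ by the test (1.81 ± 0.83, limma adjusted p = 0.172). Heme oxygenase 1 (Hmox1), which breaks down heme, was highest in HCC 6 at 10.25, next in HCC 3 at 9.47, and otherwise between 8.05 and 9.05 in HCC, against 8.27 to 8.98 in normal liver (0.44 ± 0.30, limma adjusted p = 0.378). HCC 6 also had the highest mean of 6 markers of stellate cells and fibroblasts, at 11.72, against 7.03 to 9.11 in the other tumours and 8.0 to 8.97 in normal liver. The part of those cells in the Gpx3 and Hmox1 values of HCC 6 was not tested, and HCC 3, at 8.50, was within the normal range of that marker mean.

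**Figure D2:**
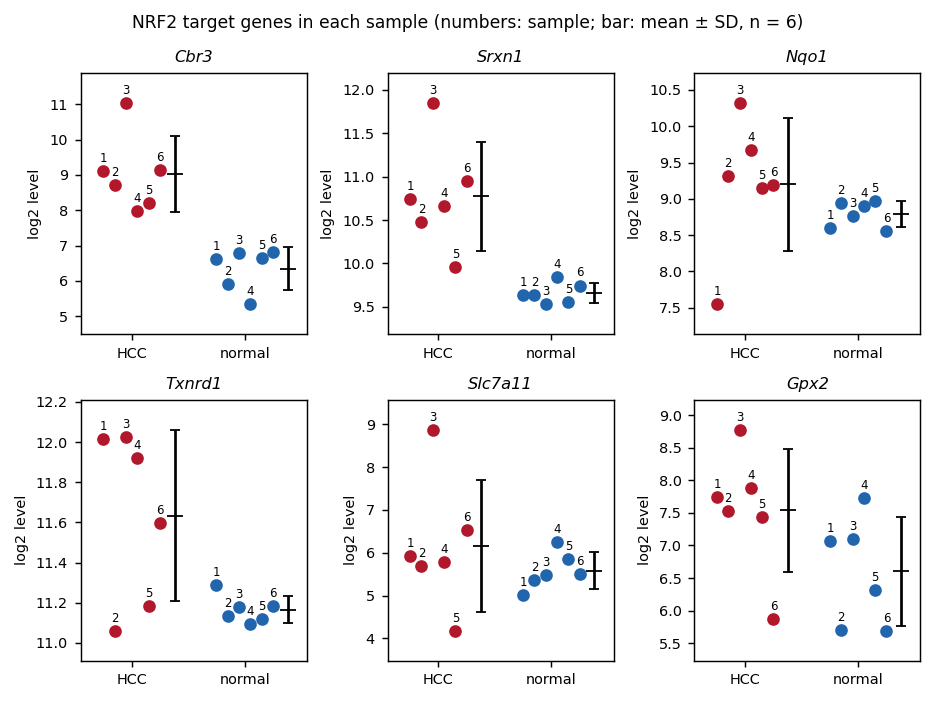
Log2 levels (y axis) of 6 NRF2 target genes in each of 6 HCC (red) and 6 normal livers (blue), numbered by sample, with bars for the mean ± SD. The genes are Cbr3, Srxn1, Nqo1, Txnrd1, Slc7a11 and Gpx2, chosen after their values were seen, and HCC 3 is the highest tumour in all 6, whereas it is the lowest tumour for Osgin1 at 12.67 and below all normal livers for Gclm at 12.04.

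Of the 5 measured genes of glutathione synthesis and recycling, 1 rose and none fell, against 6.48% and 7.25% of all genes, and 1 call among 5 genes is too few to set the group apart. Glutathione synthetase (Gss), the second step of synthesis, was at 10.72, 11.03, 11.94, 11.15, 11.37 and 11.26 in HCC 1 to 6, against 10.34 to 10.83 in normal liver. All tumours but HCC 1 lay above the normal range, and the rise was 0.65 ± 0.19 (SE, limma adjusted p = 0.0369). Leaving out HCC 4, 5 or 6 or normal 1, 2, 3, 4 or 5 ended that call (limma adjusted p up to 0.0802), as did median centring (adjusted p = 0.0506) and the replicate number as a block (adjusted p = 0.072). Its second probe set was at 0.81 and passed in the fit over all probe sets (limma adjusted p = 0.036). The rate-limiting first step is made by a catalytic and a modifier subunit. The catalytic subunit Gclc was between 13.70 and 14.42 in HCC and between 13.46 and 14.40 in normal liver (0.18, 95% interval -0.23 to 0.60). The modifier subunit Gclm was below all normal livers in 4 tumours and above them in HCC 1, at -0.35 ± 0.20 overall (limma adjusted p = 0.266). Its second probe set was at -0.58 and passed in the fit over all probe sets (limma adjusted p = 0.0358). Glutathione reductase (Gsr) was at -0.20 ± 0.15 (limma adjusted p = 0.403). The cystine importer Slc7a11 was at 5.92, 5.69, 8.87, 5.78, 4.18 and 6.53 in HCC 1 to 6, against 5.01 to 6.25 in normal liver. HCC 3 was 3.29 above the mean of normal liver and HCC 5 was near the floor of 4, and the groups overlapped (0.58 ± 0.59, limma adjusted p = 0.566).

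None of the 3 measured genes of the pentose phosphate pathway, which yields NADPH, passed the test. Phosphogluconate dehydrogenase (Pgd) came nearest, at 0.38 ± 0.14 (limma adjusted p = 0.0885), with 5 tumours above all normal livers, and without HCC 1 it was 0.45 and passed (limma adjusted p = 0.0482). All 4 of its probe sets gave differences between 0.32 and 0.41. Transaldolase (Taldo1) was at -0.22 and transketolase (Tkt) at 0.04.

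The 7 class mu genes lie in a cluster on chromosome 3, in the order Gstm5, Gstm7, Gstm6, Gstm3, Gstm2, Gstm1 and Gstm4. None passed the test as a group comparison, with differences from -0.27 to 0.98. All 7 varied more among HCC than among normal livers, as did 64.7% of all genes. Gstm2 was at 14.46, 10.53, 12.22, 14.09, 10.66 and 12.70 in HCC 1 to 6, against 11.61 to 12.61 in normal liver. HCC 1 and HCC 4 were 2.30 and 1.93 above the mean of normal liver, and HCC 2 and HCC 5 were at -1.63 and -1.50, so that the difference of the groups was 0.28 ± 0.62 (limma adjusted p = 0.816). Gstm3 was at 14.82, 12.17, 14.94, 14.54, 12.65 and 14.19 in HCC 1 to 6, against 12.28 to 13.51 in normal liver. It was above all normal livers in 4 tumours and below them in HCC 2, and the difference of 0.98 ± 0.48 (limma adjusted p = 0.198) was 1.33 and passed without HCC 2 (limma adjusted p = 0.0457). Above all normal livers lay 6 of the 7 genes for HCC 1, 5 for HCC 4 and 4 for HCC 3. The shares of all genes were 22.1%, 21.7% and 22.9%. None of the 7 lay below in these 3 tumours, against 24.2%, 26.3% and 25.6% of all genes. In HCC 2 and in HCC 6, 4 of the 7 lay below all normal livers, against 21.7% and 30.0% of all genes.

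Glutamine synthetase (Glul), the classical beta-catenin target of liver, is given beside these genes as a marker of the pericentral programme. Relative to the mean of normal liver, HCC 1 was at 1.17, HCC 4 at 1.11 and HCC 6 at 0.63, whereas HCC 2 was at -2.25, HCC 3 at -2.60 and HCC 5 at -1.97. The highest Gstm2 values were thus in the tumours with the highest Glul. HCC 3 had the lowest Glul of all and the highest Gstm3, at 2.04 above the mean of normal liver, with Gstm2 at 0.05. Gstm7 was lowest in HCC 6, at 9.94, against 11.33 to 12.12 in the other tumours. Gstm5 was above all normal livers in every tumour but HCC 6 (0.48 ± 0.18, limma adjusted p = 0.0962), and without HCC 6 it passed at 0.59 (limma adjusted p = 0.0343). Mu genes are close copies of each other, and the probe sets used for Gstm1 and Gstm3 carry the manufacturer's suffixes for possible cross-hybridisation. Signal of one member read as another therefore cannot be told apart here. Outside class mu, the probe sets used for the listed genes Srxn1, Gsto1, Pgd and Tkt carry such suffixes too. Gsta1 and Gstp2 had no probe set of their own, and their part in the signal read as Gsta2 and Gstp1 was not tested.

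**Figure D3:**
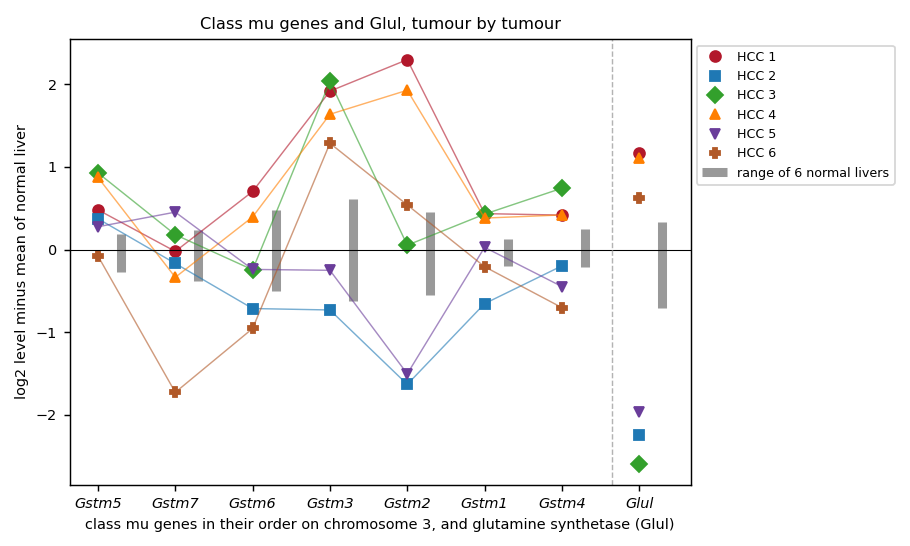
Log2 level minus the mean of normal liver (y axis) of the 7 class mu genes in their order on chromosome 3 and of Glul (x axis), with 1 symbol for each of 6 HCC and grey bars for the range of 6 normal livers. HCC 1 and HCC 4 are high for Gstm2 at 2.30 and 1.93 and also for Glul, whereas HCC 3 is high for Gstm3 at 2.04 with Glul at -2.60.

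Class alpha enzymes act on steroids, bilirubin and lipid peroxidation products, and none of the 3 measured passed. Gsta3 was at 15.05, 14.03, 13.96, 15.07, 13.84 and 14.57 in HCC 1 to 6, against 14.97 to 15.23 in normal liver. HCC 1 and HCC 4 were thus inside the normal range and the other 4 tumours below it. The difference was -0.67 ± 0.23 (limma adjusted p = 0.0696), and it passed without HCC 1 (-0.79, adjusted p = 0.0324) or without HCC 4 (-0.80, adjusted p = 0.033). Gsta4, which conjugates the lipid aldehyde 4-hydroxynonenal, was above all normal livers in HCC 1, 3, 4 and 6 and at 0.73 ± 0.33 overall (limma adjusted p = 0.159). Without HCC 2 it was 0.95 and passed (limma adjusted p = 0.0442). Gsta2 was scattered in both groups, from 9.88 to 12.35 in HCC and from 10.77 to 13.45 in normal liver (-0.67 ± 0.61, limma adjusted p = 0.521). Gstp1, of class pi, whose rat counterpart marks early liver tumour lesions, was between 14.93 and 15.55 in HCC and between 14.19 and 15.24 in normal liver. The difference was 0.41 (95% interval -0.07 to 0.89, limma adjusted p = 0.247).

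The only fall past the test was Gstk1, the kappa class enzyme of mitochondria and peroxisomes. It was at 11.76, 11.95, 12.06, 11.64, 12.74 and 11.16 in HCC 1 to 6, against 12.98, 12.94, 13.10, 13.36, 13.57 and 13.29 in normal livers 1 to 6. Every tumour was below every normal liver, and the log2 level fell by 1.32 ± 0.23, to a fold of 0.40 (SE, limma adjusted p = 0.0030). Gstz1, the maleylacetoacetate isomerase of tyrosine breakdown, was also below all normal livers in every tumour, at 12.73 to 13.76 in HCC against 13.78 to 14.22 in normal liver, and just missed the threshold (-0.60 ± 0.19, limma adjusted p = 0.0505). It passed without HCC 2 (-0.67, adjusted p = 0.0345) or without HCC 3 (-0.67, adjusted p = 0.0416). Gstt3, of class theta, was at 9.5, 10.21, 11.98, 8.94, 10.54 and 9.96 in HCC 1 to 6, against 11.21 to 11.77 in normal liver. HCC 3 was above the normal range and the other 5 tumours were below it, and the difference of -1.27 ± 0.40 (limma adjusted p = 0.0511) was -1.63 without HCC 3 and passed (limma adjusted p = 0.00281). Its neighbours on chromosome 10, Gstt1 and Gstt2, were at -0.10 and 0.20. Gsto1, of class omega, was at -0.73 ± 0.31 (limma adjusted p = 0.138), while its other probe set was at -1.27 and passed in the fit over all probe sets (limma adjusted p = 0.00541).

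Of the microsomal transferases, Mgst1, abundant in the endoplasmic reticulum of hepatocytes, was near the top of the array's range in both groups. It was at 15.25 to 15.53 in HCC against 15.62 to 15.69 in normal liver, with no overlap and a difference of -0.26 ± 0.10 that did not pass (limma adjusted p = 0.120). Mgst3 was at -0.34 ± 0.37 (limma adjusted p = 0.598). Mgst2 was close to the floor in several samples of both groups, at 4.43 to 6.86 in HCC and 4.80 to 6.41 in normal liver, so its difference of 0.24 is not well measured.

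Counted tumour by tumour, the listed genes outside the normal range differed in number between the 6 HCC. In HCC 3, 22 of the 40 genes (55.0%) were above all 6 normal livers, against 22.9% of all genes in that tumour, and 6 (15%) were below, against 25.6%. In HCC 4 the counts were 19 above and 6 below (47.5% and 15%, against 21.7% and 26.3% of all genes), and in HCC 1 they were 16 and 7 (40.0% and 17.5%, against 22.1% and 24.2%). HCC 6 had 18 above and 14 below (45% and 35.0%, against 24.7% and 30.0%). HCC 2 and HCC 5 had more genes below than above. HCC 2 had 9 above and 16 below (22.5% and 40.0%, against 20.1% and 21.7% of all genes), and HCC 5 had 10 and 13 (25% and 32.5%, against 20.8% and 24.2%). HCC 3 was the highest of the 6 tumours for 13 of the 40 genes, against 16.7% of all genes, and these included Cbr3, Srxn1, Nqo1, Txnrd1, Slc7a11, Gpx2, Gss and Pgd. HCC 1 was the highest for 10, against 18.4% of all genes, among them Gsta4, Gstm1, Gstm2, Gstm6 and Osgin1. Nfe2l2 itself was not highest in HCC 3, where it was at 12.08, against 13.12 in HCC 6. These genes were listed with the results known, so the counts are descriptions of these 6 tumours.

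**Figure D4:**
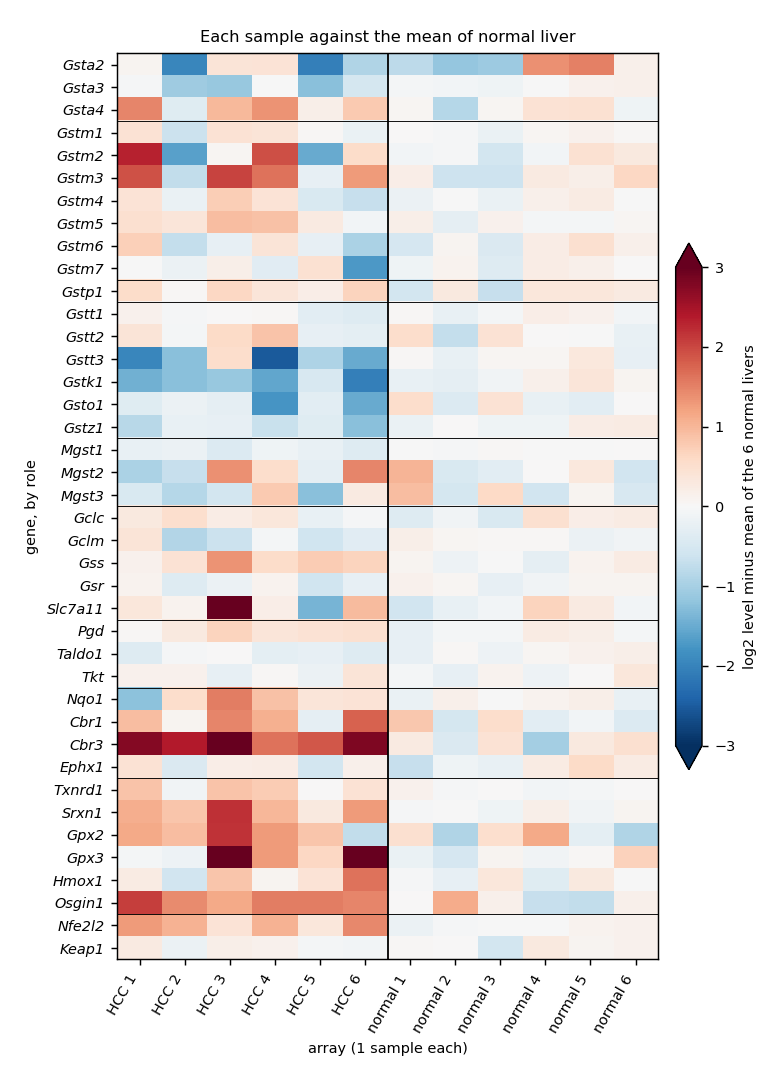
Log2 level minus the mean of 6 normal livers (colour, clipped at 3 in both directions) for the 40 measured genes (rows, by role) in 6 HCC and 6 normal livers (columns). Cbr3 and Osgin1 are red in all 6 HCC and Gstk1 is blue, while 6 of the 7 class mu genes are above the mean of normal liver in HCC 1, HCC 3 and HCC 4 and 6 of the 7 are below it in HCC 2.

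Y-linked signal (Eif2s3y, Kdm5d and Uty) divided both groups, and it was compared with the listed genes in normal liver by overlap alone, with no test between the 2 and 4 samples. HCC 1, HCC 4, normal 1 and normal 3 had a mean of these 3 genes between 4.17 and 4.85, and the other 4 HCC and 4 normal livers between 8.96 and 9.78. Among normal livers, the 2 without Y-linked signal lay apart from the 4 with it in 13 of the 40 genes. They were above in 5 (9.32% of all genes were), Mgst3, Cbr1, Gsto1, Gstt2 and Gstm5, and below in 8 (9.44% of all genes were), Gstp1, Ephx1, Gstm6, Gclc, Gstm7, Taldo1, Gstm4 and Gstz1. Gstp1, which is known to be higher in male mouse liver, was at 14.34 and 14.19 in normal 1 and normal 3 and between 15.16 and 15.24 in the other 4. Among HCC no such gap was seen, with HCC 1 and HCC 4 at 15.44 and 15.26 and the others between 14.93 and 15.55. The difference of Gstp1, HCC minus normal, was 1.09 ± 0.23 in the 2 and 2 arrays without Y-linked signal and 0.07 ± 0.19 in the 4 and 4 with it (SE, limma adjusted p = 0.127 and 0.86). A test of that difference between subsets was not run. The tumours without Y-linked signal, HCC 1 and HCC 4, were also those with the highest Glul. HCC 6, with Y-linked signal, had Glul 0.63 above the mean of normal liver and Gstm2 at 12.70. The normal livers without Y-linked signal had Gstm2 at 12.09 and 11.61, against 12.08 to 12.61 in the other 4, so the ranges overlapped. The part of either feature in the Gstm2 values was not tested.

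The 6 called genes kept their direction in both subsets. For Cbr3, Srxn1, Osgin1, Nfe2l2 and Gstk1 this had to be so, since their groups did not overlap over all arrays. Cbr3 was at 3.10 with Y-linked signal and 1.84 without, Srxn1 at 1.11 and 1.12, Osgin1 at 1.43 and 1.73, Nfe2l2 at 0.76 and 1.26, Gss at 0.82 and 0.31, and Gstk1 at -1.31 and -1.34. Cbr3 and Gstk1 passed with Y-linked signal (limma adjusted p = 0.0224 and 0.0493), and none of the 6 passed in the 2 and 2 arrays without it. Gstm2, uncalled over all arrays, was at -0.79 with Y-linked signal and 2.43 without, and Gsta2 at -1.60 and 1.19.

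**Figure D5:**
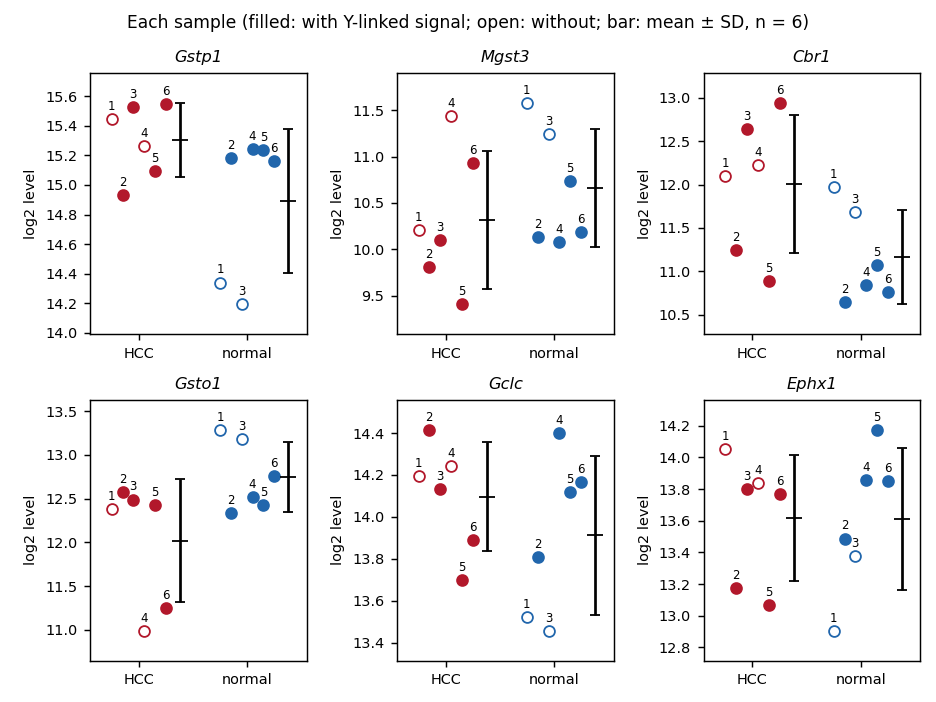
Log2 levels (y axis) of 6 genes in each of 6 HCC (red) and 6 normal livers (blue), numbered by sample, filled where Y-linked genes gave signal and open where they did not, with bars for the mean ± SD. In normal liver the open points of Gstp1 sit at 14.34 and 14.19, below all filled points, and in HCC the open and filled points mix.

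Among genes of the wider pathway that are not on the list, more fell than rose. Of 73 measured, 5 rose and 14 fell (6.85% and 19.2%, against 6.48% and 7.25% of all genes), with a median difference of -0.11 against -0.04 over all genes. Of 20 genes that remove peroxides and superoxide or repair oxidised proteins, 7 fell and none rose. The methionine sulfoxide reductase Msra fell by 1.08 ± 0.24 and the thioredoxin reductase Txnrd3 by 1.06 ± 0.17 (SE, limma adjusted p = 0.0123 and 0.0018). In glutathione metabolism 4 of 12 fell and none rose, led by both glyoxalases, which clear methylglyoxal with glutathione as cofactor. Hagh fell by 1.21 ± 0.18 and Glo1 by 0.82 ± 0.16 (SE, limma adjusted p = 0.00116 and 0.00633). Of 8 genes of NADPH supply 2 fell, malic enzyme 1 (Me1) by 1.98 ± 0.41 and isocitrate dehydrogenase 1 (Idh1) by 0.68 ± 0.12 (SE, limma adjusted p = 0.00811 and 0.00335).

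Of 11 partners and regulators of NRF2, 4 rose and none fell, against 6.48% and 7.25% of all genes, and the call of Sqstm1 among them depended on single arrays. The small Maf proteins, which pair with NRF2 on DNA, included Maff, with HCC at 8.71 ± 0.78 and normal liver at 5.91 ± 0.87 (SD, 6 samples a group), a rise of 2.80 ± 0.43 (SE, limma adjusted p = 0.00154). For Mafk, HCC averaged 9.27 ± 0.20 and normal liver 8.27 ± 0.21 (SD, 6 samples a group), a rise of 1.0 ± 0.14 (SE, limma adjusted p = 0.000807). The other rises, named after their values were seen, were Bach1, a repressor that competes with NRF2, at 0.91 ± 0.16, and Sqstm1, an adaptor that binds Keap1, at 0.56 ± 0.17 (SE, limma adjusted p = 0.00368 and 0.0433). Leaving out HCC 1, 3, 4 or 6 or normal 1, 2, 3, 4 or 5 ended the call of Sqstm1 (limma adjusted p up to 0.0855), as did the deposited scaling (0.45, adjusted p = 0.127), the mean of both probe sets (0.31, adjusted p = 0.224), median centring (0.39, adjusted p = 0.204) and a pseudocount of 1 (0.56, adjusted p = 0.05004). Among 15 other targets and exporters of conjugates, the transporter Abcc4 rose by 2.15 ± 0.59 and the soluble epoxide hydrolase Ephx2 fell by 1.72 ± 0.23 (SE, limma adjusted p = 0.0305 and 0.000592). The call of Abcc4 was lost without HCC 1, 4 or 6 or normal 2, 4, 5 or 6 (adjusted p up to 0.0677). None of 7 further transferase and related membrane genes passed, the nearest being Gsto2 at -0.91 (limma adjusted p = 0.183). Gsto2 was dim in both groups, so its difference is not well measured. Maff was dim in normal liver, below the array's median gene in every sample. The size of its rise therefore depends on the constant of 16.

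Hepatocyte markers were high in both groups, with a mean over 6 genes of 14.28 to 15.02 in HCC and 14.91 to 15.06 in normal liver. Of these, 1 of the 6, Tat, was lower (-1.14, limma adjusted p = 0.0369). Means of 5 cholangiocyte and progenitor markers were 7.31 to 8.67 in HCC and 6.74 to 7.28 in normal liver, with 1 of the 5, Prom1, higher. Means of 5 T and NK cell markers were 6.29 to 7.59 in HCC and 5.37 to 6.62 in normal liver, with none of the 5 past the test. Kupffer cell and macrophage markers had means of 8.15 to 9.77 in HCC and 8.49 to 9.84 in normal liver (1 of 6 lower), endothelial markers 7.88 to 9.53 and 8.76 to 9.76 (2 of 5 lower), stellate cell markers 7.03 to 11.72 and 8.0 to 8.97 (1 of 6 higher and 1 lower), and B cell markers 6.56 to 8.02 and 6.76 to 7.91 (none of 3). No list mean was at the floor. The part of these cells in the differences above was not tested.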

How the data were processed

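RNA of 6 HCC and 6 normal livers was hybridised to 12 Affymetrix arrays of 1 colour. Per the labels' protocols, total RNA was amplified by the one-cycle cDNA method and labelled with biotin. The intensity values, as deposited by the authors, covered 45101 probe sets on a linear scale from 0.104 to 82665.9. Each array had a trimmed mean of 500.0, and 14.2% to 18.2% of its probe sets were dimmer than 16. How probes were summarised is not stated in the labels used. After 64 control probe sets were left out, log2(intensity + 16) was quantile normalized over 45037 probe sets, of which 34945 named 1 gene, 932 several and 9160 none. For each of 18193 genes the brightest probe set was kept, and 36 of the 40 measured genes of the list had a mean above the median gene. The groups were compared by limma 3.58.1 (lmFit, eBayes, two-sided, Benjamini-Hochberg over all genes, threshold 0.05) in R 4.3.3. The fit was also run on simulated data with independent samples and equal spread in both groups. In the real data the spread was larger among HCC for 64.7% of all genes, so that run does not test the fit under unequal spread. Intervals are 95% intervals of the limma estimate. Tables and figures used Python 3.11.15, pandas 2.3.3 and matplotlib 3.10.9.

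All 43 genes of the list are described. Of a further list of 81 pathway genes, 73 were measured, and those named are up to 2 called genes with the largest difference in each direction of each of 6 sets, or the gene with the smallest p where none was called. Bach1 and Sqstm1 are outside that rule. The genes, lists and alternatives were chosen with earlier results of these data known. Same-number samples of the groups had correlations of deviations from -0.0147 to 0.0777, so numbers were not taken as pairs. Gene names come from the platform annotation, and positions and promoter sequences from RefSeq (GRCm38.p6). The alternatives tried were other pseudocounts and scalings, only genes above the median gene, probe sets averaged per gene, each other probe set (added after the data were seen), a trended and robust variance, weights per array, the replicate number taken as a block, the Y-linked level as a term, arrays with or without Y-linked signal, a stricter threshold, and each array left out.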

Additional observations from a re-analysis of the deposited data

Results flagged for a closer look

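Within each group of 6, a sample was singled out where its gap to the nearest other sample exceeded 0.625 of the group's whole range, which is Dixon's 95% limit for 6 samples. Of 80 groups of values, for 40 genes in HCC and in normal liver, 2 had such a sample, and chance alone gives about 1 in 20 groups. Gstm7 in HCC 6 was at 9.94, with the other tumours between 11.33 and 12.12. Keap1 in normal 3 was at 9.56, with the other normal livers between 10.12 and 10.41. Without HCC 6 the difference of Gstm7 was 0.022 in place of -0.27, and without normal 3 that of Keap1 was -0.068 in place of 0.04, none of them past the test (limma adjusted p from 0.617 to 0.957).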

How the results depend on the processing

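The count of listed genes that rose, 5, was 3 with the mean of all probe sets, 1 in the arrays with Y-linked signal, 0 in those without it, 3 at an adjusted p under 0.01, and 4 to 8 with single arrays left out. The count that fell, 1, was 4 with a pseudocount of 64, 5 for genes above the median gene, 3 with the mean of all probe sets, 2 with the deposited scaling, 3 with median centring, 5 with a trended and robust variance, 3 with array weights, 4 with the Y-linked level as a term, 2 in the arrays with Y-linked signal, 0 in those without it, and 1 to 3 with single arrays left out. Gstt3 and Gstz1 were the uncalled genes nearest the threshold over all arrays, but other genes passed too. Gsta3 passed with a pseudocount of 64, for genes above the median gene and with a trended and robust variance. It also passed with the Y-linked level as a term and in the arrays with Y-linked signal (-1.03, limma adjusted p = 0.021). Mgst1 passed for genes above the median gene and with a trended and robust variance. With the mean of all probe sets Mgst1 and Gsto1 passed. Of the wider pathway, the 5 rises were 1 without Y-linked signal and 3 at an adjusted p under 0.01, and 3 to 6 with single arrays left out. The 14 falls were 9 with the replicate block, 8 with Y-linked signal, 0 without it, 8 at an adjusted p under 0.01, and 10 to 17 with single arrays left out. The subsets hold fewer arrays, and other causes were not tested. With the replicate block 4 listed genes rose and 1 fell. Gss (adjusted p = 0.072) and Sqstm1 (0.103) lost their calls, and 2 of 6 tumours correlated best with the normal liver of their own number.

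Among the called genes of the list only Nfe2l2 changed sign, at -0.74 in its dimmer probe set, which did not pass. The other sign changes were in uncalled genes. They came in the arrays with Y-linked signal for Gstm1 (-0.15), Gstm2 (-0.79), Gstm4 (-0.25), Gclc (-0.090), Ephx1 (-0.39) and Keap1 (-0.17), and in those without it for Gsta2 (1.19), Gsta3 (0.061), Gstm6 (1.01), Gstm7 (0.074), Gstt1 (0.094), Mgst2 (-0.57), Gclm (0.064), Gsr (0.15) and Nqo1 (-0.069). They turned with median centring for Gstm4 (-0.0079), Tkt (-0.091) and Ephx1 (-0.16), with the deposited scaling for Tkt (-0.024) and Ephx1 (-0.094), with array weights for Ephx1 (-0.0085), and with the mean of all probe sets for Gstm1 (-0.0022) and Keap1 (-0.013). Another probe set turned the sign of Gstm1 (-0.25), Mgst3 (0.31), Gsr (0.028), Tkt (-0.10) and Keap1 (-0.067). With single arrays left out, ranges crossed 0 for Gstm1 (-0.0046 to 0.21), Gstm2 (-0.12 to 0.66), Gstm4 (-0.10 to 0.19), Gstm7 (-0.41 to 0.022), Mgst2 (-0.0035 to 0.48), Tkt (-0.030 to 0.11), Ephx1 (-0.13 to 0.12) and Keap1 (-0.068 to 0.10). Dim signals near the floor limit Mgst2, Slc7a11 and Gsto2. Cbr3 and Maff were dim in normal liver, which limits the size of their rises. Gpx2 averaged 7.54 in HCC and 6.60 in normal liver, both below the array's median gene, which limits the size of its difference too.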
